A study of Mus musculus with 15 samples.

Results

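The p53 target genes described here are 33 genes chosen by symbol: Trp53 itself, its direct inhibitors, and genes that p53 is known to activate. They were found by symbol among 46120 genes of the deposited count tables, and all 33 were present. The list was chosen with earlier results of these data known. Shares of members set beside all genes are thus a description and not an independent test. The members were followed in 15 RNA sequencing libraries of mouse hematopoietic stem cells (HSCs), the self-renewing cells of the marrow from which every blood lineage descends. Each library came from 100 sorted HSCs of wild type C57BL/6 mice aged 8 to 10 weeks. The treated groups were HSCs on day 4 after 5-fluorouracil (5-FU, n = 4), set against HSCs of untreated mice (n = 4), and HSCs cultured with nifedipine (n = 4), set against HSCs cultured without it, called control (n = 3). 5-FU is a pyrimidine analog that blocks thymidylate synthesis, and nifedipine is a dihydropyridine that blocks L-type calcium channels. The cultured cells were sorted from the population that had divided no more than 3 times. The sources used here state neither drug doses nor how long the cells were cultured. The labels do not say whether the libraries of a group came from separate animals or cultures, so every p-value measures the spread between these libraries, which may be technical.

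p53, encoded by Trp53 in mice, is a transcription factor that is held low by the ubiquitin ligase Mdm2 and its partner Mdm4, and that accumulates and is modified after DNA damage and other stress. Much of its control acts on the protein, so the level of Trp53 mRNA need not follow its activity. Its targets arrest the cell cycle, repair DNA, adjust metabolism or start apoptosis, and Mdm2 is among them, which closes a feedback loop. In HSCs, p53 is known for its roles in quiescence and in the response to irradiation and chemotherapy.

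Exon reads per library ranged from 9775640 to 17397392 after 5-FU, from 6171730 to 16685285 in untreated HSCs, from 17582453 to 22372771 with nifedipine and from 20145079 to 26673045 in control HSCs. Levels are given as CPM, which relate a gene's reads to all exon reads in its library, with TMM scaling over the 15 libraries. All 12 HSC markers had reads in every library, with a summed level of 3850 to 4160 CPM after 5-FU, 5490 to 5860 CPM in untreated HSCs, 2710 to 3000 CPM with nifedipine and 1780 to 1840 CPM in control HSCs. Some untreated libraries stood apart in markers of other cells. The 10 erythroid markers summed to 256 to 343 CPM after 5-FU, and in untreated HSCs to 2160 and 1910 CPM in replicates 4 and 2 but 72.4 and 88.3 CPM in replicates 1 and 3. The 12 endothelial and stromal markers summed to 100 to 492 CPM after 5-FU, where replicate 4 was highest, and to 142 to 1830 CPM in untreated HSCs, where replicate 3 was lowest. In bulk libraries, fewer cells of a type and less RNA per cell cannot be told apart.

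A gene was called when its adjusted p was 0.05 or less in edgeR's quasi-likelihood test with Benjamini-Hochberg adjustment over all genes tested. With nifedipine, 26 of the 33 members were called higher than in control HSCs, which is 78.8% of them, against 25.8% of all genes tested. Only Trp53 and Fdxr were called lower, which is 6.06% of the members, against 24.2% of all genes. Calls in either direction thus covered 28 of 33 members, against 49.9% of all genes, and 17 members were called with a log2 fold change of 1 or more either way, against 9.32% of all genes. After 5-FU, 32 members could be tested; 12 of them (37.5%) were called higher than in untreated HSCs and 11 (34.4%) lower, against 26.8% and 23.8% of all genes. In either direction these were 23 of 32 members, against 50.5% of all genes, and 11 of them had a log2 fold change of 1 or more either way, against 11.7% of all genes. The median log2 fold change of the members was 1.07 with nifedipine, where the median of all genes tested was 0.02. After 5-FU the medians were 0.02 for the members tested and -0.02 for all genes.

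**Figure D1:**
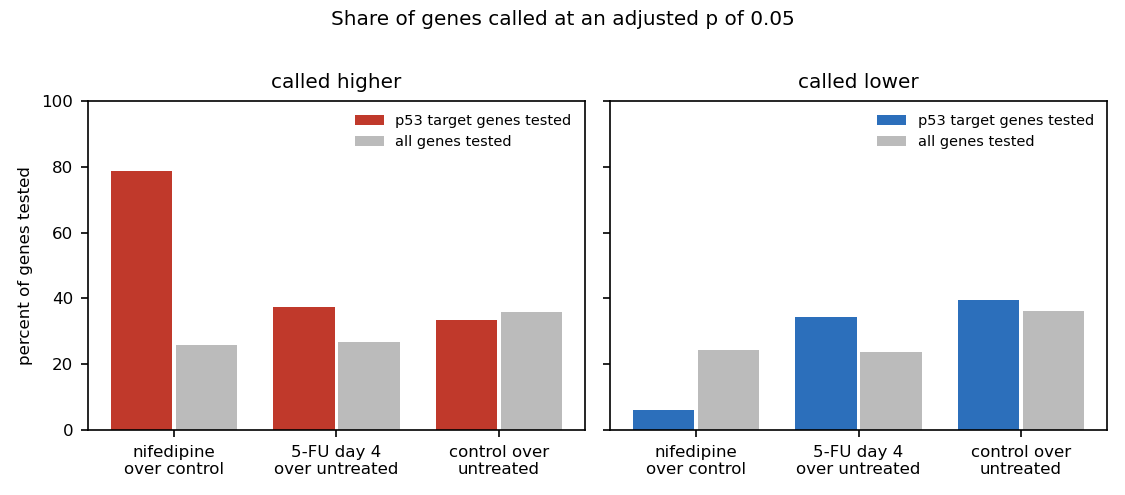
Percent of genes called higher (left) and lower (right) in each comparison, on a linear axis from 0 to 100, for the p53 target genes tested (coloured bars) and for all genes tested (grey bars). Nifedipine has the tallest bar for called higher, 78.8% of the members against 25.8% of all genes, while after 5-FU 37.5% of the members are called higher and 34.4% lower, against 26.8% and 23.8% of all genes.

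Promoters of the members were searched for the consensus sequence that p53 is known to bind. Windows of 300 bases, from 250 before to 50 after each transcript start in RefSeq on GRCm38.p6, were given for 25 of the 33 members (35 windows). The p53 consensus element of 10 bases was found without a mismatch in 10 of these windows (28.6%), those of Aen, Bax, Ccng1, Ei24, Mdm2, Polk, Rps27l, Sesn1 and Trp53, against 8.36% of 32851 promoter windows of all genes. It reads the same on both strands, so a single pass covers both. The windows of Aen overlap and hold the same element, which is counted in each. Counted by gene, a match was found in 9 of the 25 members and in 2582 of 27025 genes. A full site, made of a pair of these elements with up to 13 bases between them and at most 2 mismatches, none of them in the central C and G of an element, was found in 4 of the 35 windows (11.4%), against 4.09% of all windows, and each such site may overlap a single element counted above. The stretches that hold these 4 sites, and the single element of Mdm2, follow with 40 bases on each side where the window allows, 5′ to 3′ on the strand of the gene, with the elements in capitals. The Ccng1 stretch lies at chr11:40755422-40755521 on the minus strand and its site has 1 mismatch and no spacer. That of Bax is chr7:45467050-45467148 on the minus strand, with 2 mismatches and a spacer of 5 bases. In Rps27l the stretch is chr9:66946256-66946355 on the plus strand, with 1 mismatch and no spacer, and in Sesn1 it is chr10:41887213-41887315 on the plus strand, with 2 mismatches and a spacer of 3 bases. The Mdm2 stretch is chr10:117710895-117710984 on the minus strand.
Ccng1: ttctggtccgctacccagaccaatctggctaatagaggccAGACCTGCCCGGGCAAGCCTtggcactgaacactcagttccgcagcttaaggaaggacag
Bax: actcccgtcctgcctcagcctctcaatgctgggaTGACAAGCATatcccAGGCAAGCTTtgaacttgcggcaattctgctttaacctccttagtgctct
Rps27l: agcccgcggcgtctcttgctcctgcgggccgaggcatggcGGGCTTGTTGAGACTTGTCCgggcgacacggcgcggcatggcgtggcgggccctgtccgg
Sesn1: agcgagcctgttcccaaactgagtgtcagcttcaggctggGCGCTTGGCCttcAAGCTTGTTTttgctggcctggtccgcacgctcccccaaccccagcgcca
Mdm2: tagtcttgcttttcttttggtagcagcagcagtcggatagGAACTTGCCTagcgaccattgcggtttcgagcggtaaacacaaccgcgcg
The Ccng1 site begins 195 bases before its RefSeq start and lies outside the gene in the GENCODE annotation and in the deposited interval of the gene, as does that of Mdm2 (186 bases before). The site of Bax (216 bases before) lies outside the gene in GENCODE but inside the interval that the deposited tables give for Bax, chromosome 7, 45461695 to 45468205. The sites of Rps27l (117 bases before) and Sesn1 (186 bases before) lie in introns of these genes, before an internal start. A match describes letters only. The 5 genes behaved differently: Ccng1, Mdm2, Bax and Sesn1 were called higher with nifedipine and Rps27l was not called, while after 5-FU Bax and Rps27l were called higher, Mdm2 lower, and Ccng1 and Sesn1 were not called.

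Nifedipine was compared with control first by the regulators themselves. Trp53 (chromosome 11, 69580359 to 69591873, mm10) had 96.4, 89.1, 97.1 and 103 CPM with nifedipine, against 124, 102 and 130 CPM in control HSCs. Its mRNA was thus slightly lower with the drug, with an overlap of 1 library on each side. The log2 fold change was -0.30 ± 0.08 (SE, adjusted p = 0.006), and without control replicate 3 it was -0.24 with an adjusted p of 0.051. Mdm2 (chromosome 10, 117688875 to 117710758), the ubiquitin ligase that degrades p53, had 256, 212, 176 and 236 CPM with nifedipine, against 114, 120 and 127 CPM in control HSCs. All 4 nifedipine libraries lay above all control libraries, and the log2 fold change was 0.87 ± 0.10 (SE, adjusted p = 9.84e-07). Mdm4, which binds p53 and blocks its transactivation domain, averaged 607 ± 45.1 CPM with nifedipine and 345 ± 18.1 CPM in control HSCs (SD, n = 4 and 3), a log2 fold change of 0.81 ± 0.07 (SE, adjusted p = 1.86e-08).

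Of the 7 members that act in the cell cycle or in feedback on p53, 5 were called higher with nifedipine and none lower. The shares of all genes tested were 25.8% and 24.2%, and 78.8% of all 33 members were called higher. Zmat3 (chromosome 3, 32334792 to 32365665), a zinc finger protein that binds RNA and regulates splicing, had 209, 262, 210 and 248 CPM with nifedipine, against 30.1, 27.4 and 36.4 CPM in control HSCs. It had the smallest p of the 33 members, with a log2 fold change of 2.89 ± 0.11 (SE, adjusted p = 2.42e-12). Trp53inp1, a stress protein of autophagy that also acts on p53, had 433, 393, 336 and 467 CPM with nifedipine, against 59.3, 49.7 and 71.5 CPM in control HSCs. Its log2 fold change was 2.76 ± 0.12 (SE, adjusted p = 1.14e-11), so the genes were 7.41-fold and 6.75-fold higher and no library of either group came near the other. Ccng1, encoding cyclin G1, which recruits a phosphatase to Mdm2, had 716, 613, 585 and 682 CPM with nifedipine, against 268, 264 and 270 CPM in control HSCs. The control libraries lay within a few CPM of each other, and the log2 fold change was 1.28 ± 0.07 (SE, adjusted p = 1.65e-10). Plk2, a polo-like kinase induced by stress, had 18.2, 23.0, 20.2 and 22.3 CPM with nifedipine, against 3.05, 3.70 and 2.45 CPM in control HSCs. Ptpn14, a phosphatase that restrains the growth regulator YAP, had 59.6, 70.4, 60.2 and 76.3 CPM with nifedipine, against 14.8, 16.9 and 20.1 CPM in control HSCs. For both genes the groups were far apart, with log2 fold changes of 2.77 ± 0.19 for Plk2 and 1.95 ± 0.12 for Ptpn14 (SE). The other two members of the group were not called. Plk3, a kinase related to Plk2, averaged 3.92 ± 1.07 CPM with nifedipine and 3.58 ± 0.74 CPM in control HSCs (SD, n = 4 and 3). Rps27l, a ribosomal protein that acts on Mdm2 and is closely similar in sequence to Rps27, so that reads may be shared between them, averaged 139 ± 13.5 CPM with nifedipine and 149 ± 12.4 CPM in control HSCs (SD, n = 4 and 3).

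**Figure D2:**
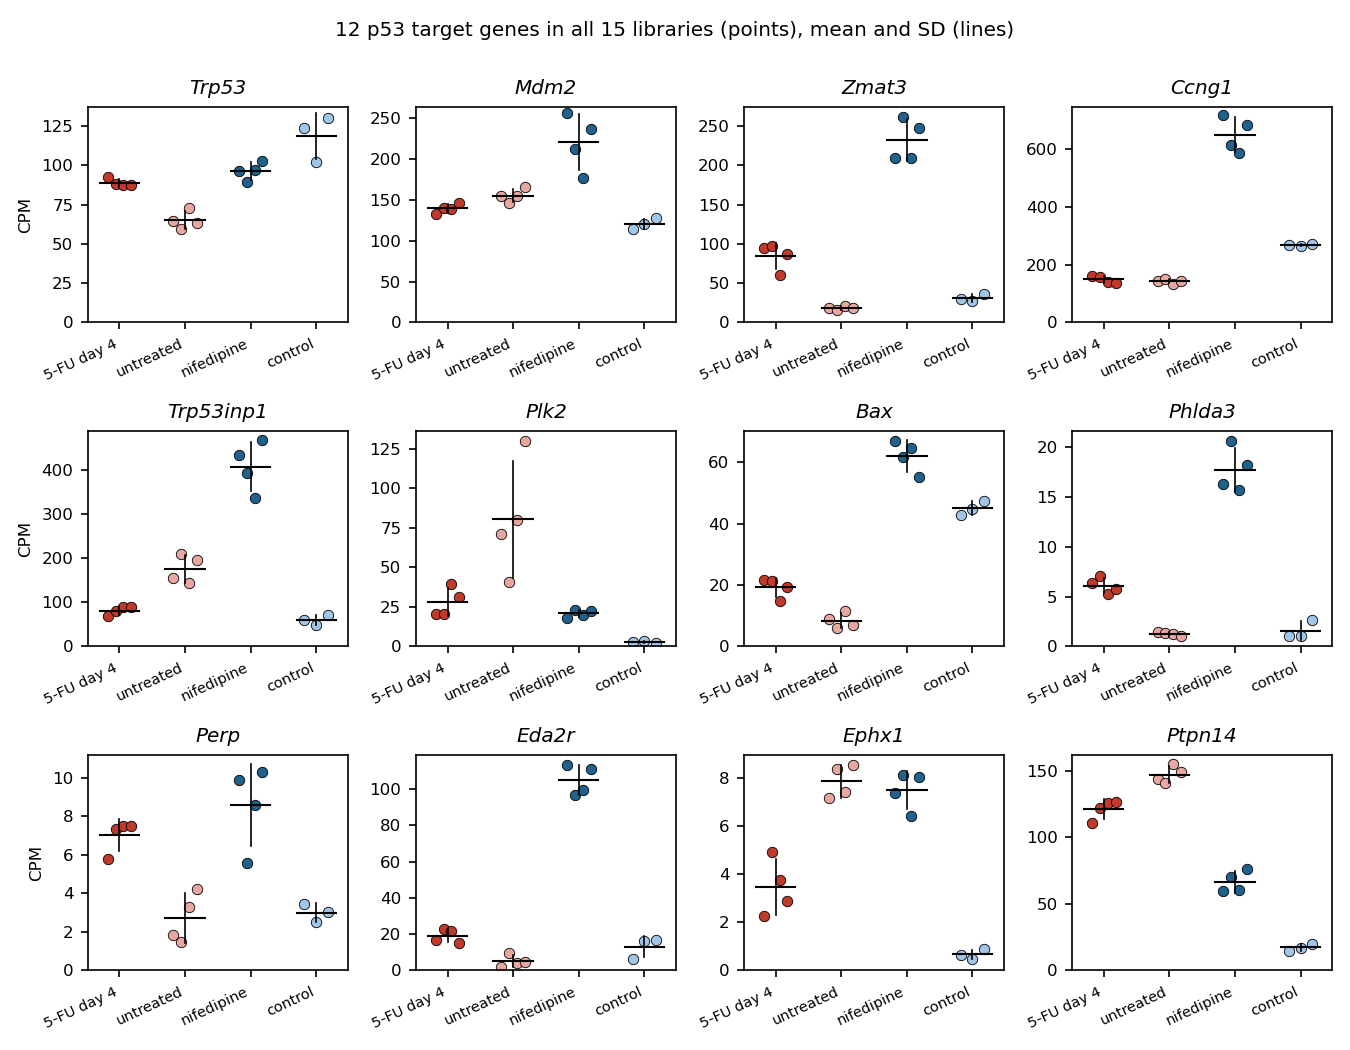
CPM of 12 p53 target genes in every library (points), with the group mean (horizontal line) and SD (vertical line), for 5-FU day 4, untreated, nifedipine and control HSCs; each panel has its own linear axis from 0. Zmat3, Phlda3 and Eda2r are higher after 5-FU than in untreated HSCs and with nifedipine than in control HSCs, while Trp53inp1, Plk2 and Ephx1 are lower after 5-FU and higher with nifedipine.

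Among the 9 members that belong to the cell-intrinsic pathway of apoptosis or regulate it, 7 were called higher with nifedipine and none lower. Among all genes tested these shares were 25.8% and 24.2%. The highest fold change of all 33 members was that of Phlda3 (chromosome 1, 135766085 to 135769134), a membrane-binding repressor of the survival kinase Akt. Phlda3 had 16.3, 20.6, 15.7 and 18.2 CPM with nifedipine, against 1.02, 1.09 and 2.66 CPM in control HSCs, a log2 fold change of 3.48 ± 0.28 (SE, adjusted p = 1.62e-08). Perp, a membrane protein of desmosomes that promotes apoptosis, had 9.88, 5.57, 8.56 and 10.3 CPM with nifedipine, against 3.47, 2.51 and 3.03 CPM in control HSCs. Bbc3, which encodes the BH3-only protein Puma, had 7.26, 8.91, 7.18 and 6.60 CPM with nifedipine, against 2.33, 4.25 and 2.50 CPM in control HSCs. The groups did not overlap in any of these 3 genes, with log2 fold changes of 1.51 ± 0.27 for Perp and 1.31 ± 0.28 for Bbc3 (SE). Pmaip1, which encodes the BH3-only protein Noxa, was low throughout, with 3.14, 3.46, 1.22 and 3.69 CPM with nifedipine, against 1.10, 0.817 and 0.730 CPM in control HSCs. Nifedipine replicate 3 came close to the control libraries, and the log2 fold change was 1.69 ± 0.50 (SE, adjusted p = 0.00921). The pore former Bax and the apoptosome scaffold Apaf1 changed less. Bax averaged 62.0 ± 5.07 CPM with nifedipine and 45.0 ± 2.28 CPM in control HSCs (SD, n = 4 and 3), and its log2 fold change was 0.46 ± 0.09 (SE). Ei24, a membrane protein of the endoplasmic reticulum, had a log2 fold change of 0.31 ± 0.07 (SE). For Apaf1 it was 0.19 ± 0.06 (SE, adjusted p = 0.0241), a call that was lost without control replicate 3 (adjusted p = 0.142) and without nifedipine replicate 4 (adjusted p = 0.0629). It was also lost with the exon length trend removed (adjusted p = 0.299). With the read total behind the deposited RPKM values as library size, its adjusted p was 0.0728. The nuclease Aen averaged 68.3 CPM with nifedipine and 72.5 CPM in control HSCs, and the scaffold protein Pidd1 34.0 CPM with nifedipine and 32.2 CPM in control HSCs, and neither was called.

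All 4 death and TNF receptors were called higher with nifedipine, against 25.8% of all genes tested. Eda2r (X chromosome, 97333837 to 97377218), the receptor of ectodysplasin A2, had 113, 96.6, 99.6 and 111 CPM with nifedipine, against 6.51, 16.2 and 16.9 CPM in control HSCs. The lowest nifedipine library was several times the highest control library, and the log2 fold change was 3.01 ± 0.21 (SE, adjusted p = 2.55e-09). Tnfrsf23, a decoy receptor for the death ligand TRAIL in the mouse, had 2.62, 3.69, 1.78 and 3.10 CPM with nifedipine, against 0.508, 0.436 and 0.782 CPM in control HSCs. Fas, the receptor of Fas ligand, had 6.98, 4.34, 4.99 and 4.92 CPM with nifedipine, against 2.71, 1.85 and 2.97 CPM in control HSCs. Both were low and did not overlap between groups, with log2 fold changes of 2.27 ± 0.51 for Tnfrsf23 and 1.07 ± 0.31 for Fas (SE). Tnfrsf10b, the death receptor of TRAIL, averaged 44.0 ± 4.15 CPM with nifedipine and 29.2 ± 1.46 CPM in control HSCs (SD, n = 4 and 3), a log2 fold change of 0.59 ± 0.11 (SE).

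Of the 5 genes of DNA repair and nucleotide supply, 4 were called higher with nifedipine, against 25.8% of all genes tested. Ercc5, the endonuclease that cleaves 3′ of a lesion in nucleotide excision repair, had 42.6, 49.5, 37.5 and 41.8 CPM with nifedipine, against 15.6, 20.7 and 17.9 CPM in control HSCs. Xpc, which recognises the lesion, had 59.3, 59.9, 55.2 and 64.6 CPM with nifedipine, against 28.1, 25.8 and 29.3 CPM in control HSCs. Both genes thus had more than 2-fold higher means with nifedipine and groups that did not overlap, with log2 fold changes of 1.24 ± 0.13 for Ercc5 and 1.11 ± 0.10 for Xpc (SE). The translesion polymerase Polk had a log2 fold change of 0.74 ± 0.09, and Rrm2b, the p53-inducible subunit of ribonucleotide reductase, one of 0.66 ± 0.11 (SE). Ddb2, a sensor of ultraviolet damage, was not called, with 10.5 ± 2.29 CPM with nifedipine and 8.68 ± 1.02 CPM in control HSCs (SD, n = 4 and 3). Its exons share 652 bases with Acp2 on the opposite strand, and these libraries do not mark strand, so the counts of Ddb2 are uncertain in every group. Rrm2b exons share 734 bases with the opposite-strand gene Gm49085. For Ptpn14 and Tnfrsf23 the overlaps are 177 bases with Gm26574 and 164 bases with E230032D23Rik. Gm49085, Gm26574 and E230032D23Rik were not found by name among the counted genes, so their part in the counts is not known. Acp2 was counted, with 10176 reads over the 15 libraries, against 3479 for Ddb2.

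Metabolic members held both the second highest fold change and the lowest. Ephx1, an epoxide hydrolase, had 7.4, 8.14, 6.42 and 8.07 CPM with nifedipine, against 0.635, 0.490 and 0.887 CPM in control HSCs. Dcxr, a reductase of dicarbonyls and xylulose, had 19.9, 17.1, 11.7 and 16.2 CPM with nifedipine, against 5.37, 2.40 and 5.63 CPM in control HSCs. Ak1, the cytosolic adenylate kinase, had 45.2, 47.8, 43.1 and 48.6 CPM with nifedipine, against 14.8, 15.2 and 15.9 CPM in control HSCs. In these 3 genes every nifedipine library exceeded every control library, with log2 fold changes of 3.47 ± 0.34 for Ephx1, 1.85 ± 0.26 for Dcxr and 1.59 ± 0.11 for Ak1 (SE). Sesn1, a sestrin that restrains mTORC1, had a smaller log2 fold change of 0.48 ± 0.07 (SE). Fdxr, the mitochondrial ferredoxin reductase, went the other way, with 9.96 ± 1.12 CPM with nifedipine and 14.2 ± 0.766 CPM in control HSCs (SD, n = 4 and 3), a log2 fold change of -0.51 ± 0.16 (SE, adjusted p = 0.0124).

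Other groups of genes moved in the same libraries. With nifedipine, 9 of 12 HSC markers were called higher and 2 lower than in control HSCs. Of 20 mitosis genes, 12 were called lower and 1 higher, and their mean log2 CPM was 6.12 to 6.52 with nifedipine and 6.80 to 6.84 in control HSCs. The summed level of the erythroid markers was 106 to 166 CPM with nifedipine and 208 to 260 CPM in control HSCs, and most of it was the globin Hbb-bt, with means of 132 CPM with nifedipine and 216 CPM in control HSCs. That of the granulocyte and macrophage markers was 219 to 241 CPM with nifedipine and 66.5 to 85.5 CPM in control HSCs, and nearly all of it was the lysozyme Lyz2, with means of 217 CPM with nifedipine and 67.6 CPM in control HSCs. The megakaryocyte markers, of which 4 of 6 tested were called lower and none higher, summed to 244 to 367 CPM with nifedipine and 377 to 561 CPM in control HSCs. The lymphocyte markers, of which 2 of 4 tested were called lower and none higher, summed to 7.56 to 10.7 CPM with nifedipine and 13 to 14.6 CPM in control HSCs. The endothelial and stromal markers summed to 135 to 170 CPM with nifedipine and 147 to 172 CPM in control HSCs, and 8 or 9 of the 12 had reads in each cultured library. At 0 in all 7 cultured libraries were the stromal genes Col3a1 and Cxcl12 and the erythroid genes Hba-a2 and Slc4a1. So were the myeloid genes Mpo, Elane, Ly6c2, C1qa, C1qb, S100a8 and S100a9. The lymphocyte genes Igkc, Cd3e, Cd3g and Ms4a1 had no reads in any of the 15 libraries, fresh or cultured. The part of these genes and cells in the members' changes was not tested. In 26 of the 33 members all nifedipine libraries lay above all control libraries, against 25.9% of all genes tested. These were the 26 members called higher, so the lack of overlap largely restates the calls. Among all genes tested, 3299 were called higher and 3319 had nifedipine libraries all above.

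**Figure D3:**
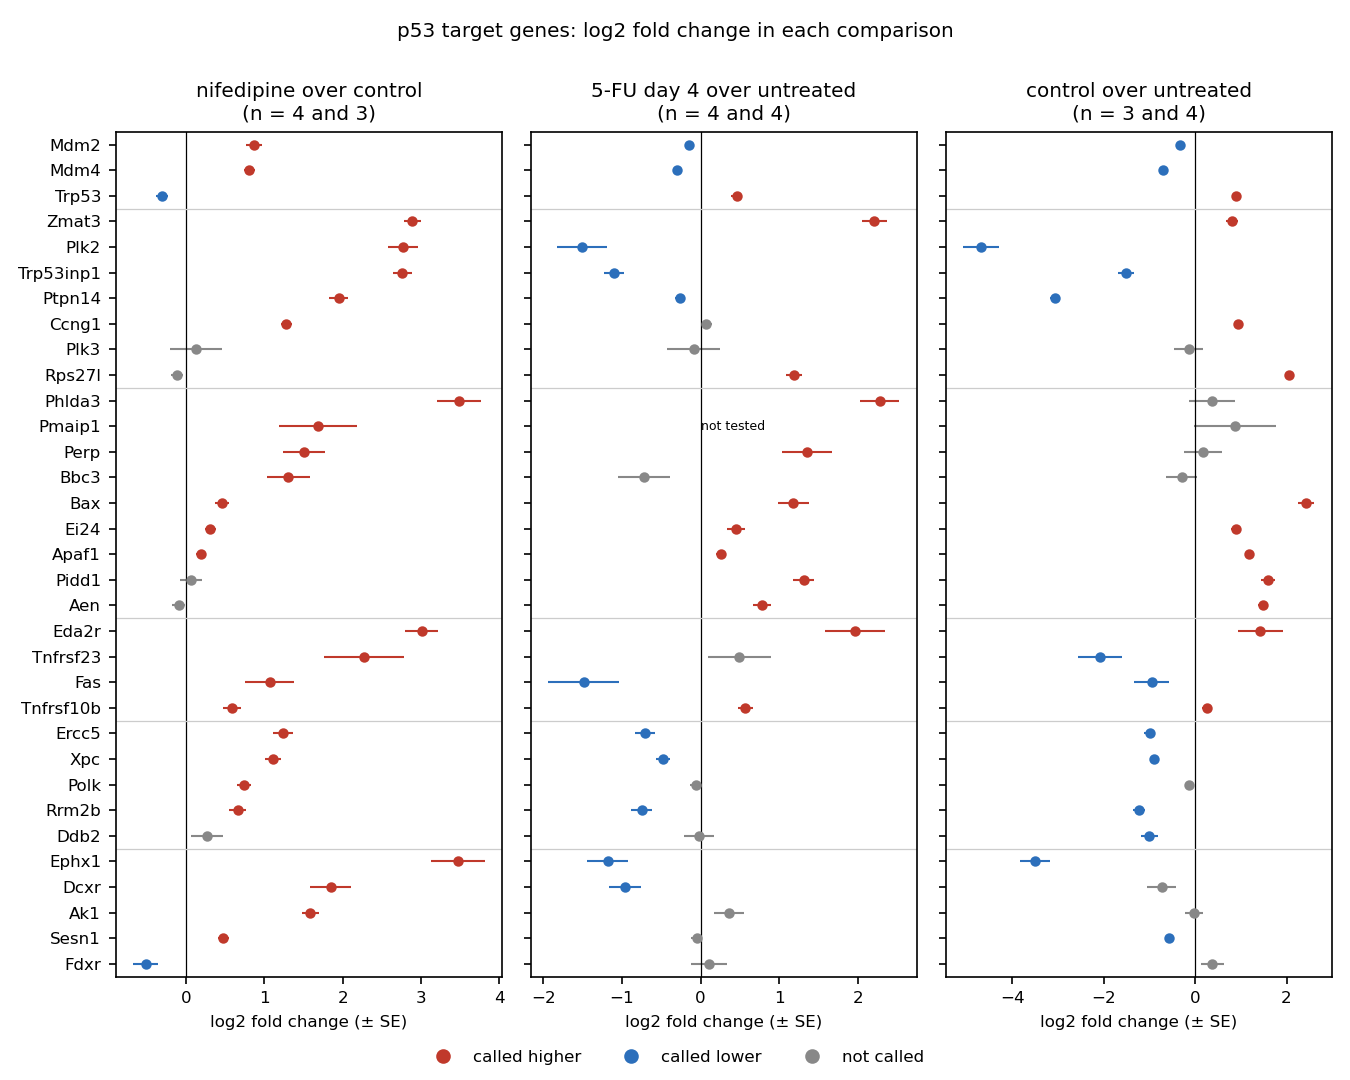
Log2 fold change (points) with its SE (bars) of each p53 target gene, ordered by role and, within a role, by the fold change with nifedipine, for nifedipine over control, 5-FU day 4 over untreated and control over untreated; red marks genes called higher, blue genes called lower and grey genes not called, and each panel has its own axis. In the nifedipine panel 26 genes lie to the right of 0 in red and 2 to the left in blue, while the 5-FU panel holds 12 red and 11 blue genes.

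After 5-FU the members moved both ways. Of the 8 genes of cell-intrinsic apoptosis that could be tested, 7 were called higher and none lower, while none of the 5 repair genes and none of the 5 metabolic genes was called higher. Among all genes tested, 26.8% were called higher. Of the 32 members tested, 12 had 5-FU libraries all above and 11 had 5-FU libraries all below, against 25.3% and 22% of all genes. These were the 23 members called, so the lack of overlap largely restates the calls. With the read total behind the deposited RPKM values as library size, the median log2 fold change of all genes was 0.17 and 14 members were called higher and 8 lower. Exon reads made up 30.01% to 31.87% of that total after 5-FU and 24.96% to 26.28% in untreated HSCs. In cultured HSCs they made up 31.84% to 38.38% with nifedipine and 35.51% to 38.86% in control HSCs.

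Trp53 mRNA was higher after 5-FU, with 92.8, 88.2, 87.3 and 87.4 CPM on day 4, against 64.4, 59.7, 73.0 and 63.0 CPM in untreated HSCs. The groups did not overlap, and the log2 fold change was 0.46 ± 0.07 (SE, adjusted p = 0.00031). Mdm2 differed little, with 133, 140, 138 and 146 CPM after 5-FU, against 154, 146, 154 and 165 CPM in untreated HSCs. Its log2 fold change of -0.15 ± 0.05 (SE) passed at an adjusted p of 0.0401, and it did not pass without untreated replicate 1 (adjusted p = 0.0715) or 4 (0.118), nor without 5-FU replicate 1 (0.0881), 2 (0.0787) or 3 (0.0638). At the RPKM-based library size the direction turned and the log2 fold change was 0.05, under the shift of 0.17 of all genes. Mdm4 averaged 469 ± 13.6 CPM after 5-FU and 579 ± 13.3 CPM in untreated HSCs (SD, n = 4 each), a log2 fold change of -0.30 ± 0.04 (SE, adjusted p = 0.000144), which became -0.10 with an adjusted p of 0.0999 at that library size.

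Zmat3 and Rps27l were the 2 members of the cell cycle and feedback group called higher after 5-FU. Zmat3 had 94.5, 96.9, 60.2 and 87.6 CPM after 5-FU, against 18.9, 15.4, 20.7 and 18.2 CPM in untreated HSCs. Rps27l had 93.8, 84.8, 72.9 and 83.5 CPM after 5-FU, against 36.7, 32.6, 42.0 and 35.8 CPM in untreated HSCs. Both were well separated between groups, with log2 fold changes of 2.21 ± 0.16 for Zmat3 (SE, adjusted p = 4.42e-06) and 1.19 ± 0.10 for Rps27l. Plk2 and Trp53inp1 were called lower. Plk2 had 20.8, 20.8, 39.4 and 31.3 CPM after 5-FU, against 71.0, 40.7, 80.3 and 130 CPM in untreated HSCs. Trp53inp1 had 68.0, 80.5, 88.9 and 88.3 CPM after 5-FU, against 155, 209, 144 and 196 CPM in untreated HSCs. Untreated HSCs spread widely for Plk2, and its highest 5-FU library lay just under the lowest untreated one; the log2 fold changes were -1.51 ± 0.32 for Plk2 and -1.10 ± 0.13 for Trp53inp1 (SE). Ptpn14 averaged 122 ± 7.26 CPM after 5-FU and 147 ± 6.05 CPM in untreated HSCs (SD, n = 4 each) and was called lower, with a log2 fold change of -0.26 ± 0.06 (SE), a call lost at the RPKM-based library size (adjusted p = 0.356) and with the exon length trend removed (adjusted p = 0.372). Ccng1, at 149 ± 11.3 CPM after 5-FU and 143 ± 6.73 CPM in untreated HSCs (SD, n = 4 each), and Plk3 were not called.

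The apoptosis genes called higher after 5-FU were Phlda3, Perp, Pidd1, Bax, Aen, Ei24 and Apaf1. Phlda3 had 6.33, 7.03, 5.28 and 5.76 CPM after 5-FU, against 1.43, 1.32, 1.26 and 1.03 CPM in untreated HSCs. Bax had 21.6, 21.3, 14.9 and 19.4 CPM after 5-FU, against 9.05, 6.16, 11.5 and 7.07 CPM in untreated HSCs. Every 5-FU library exceeded every untreated one in both genes, with log2 fold changes of 2.28 ± 0.25 for Phlda3 (SE, adjusted p = 4.35e-05) and 1.18 ± 0.20 for Bax (SE, adjusted p = 0.000776). Pidd1 had 27.1, 24.7, 31.8 and 24.6 CPM after 5-FU, against 9.66, 10.9, 11.9 and 11.3 CPM in untreated HSCs. Perp had 5.77, 7.32, 7.51 and 7.48 CPM after 5-FU, against 1.82, 1.47, 3.31 and 4.24 CPM in untreated HSCs. The gap between the groups was wide for Pidd1 and narrow for Perp, with log2 fold changes of 1.31 ± 0.13 for Pidd1 and 1.35 ± 0.32 for Perp (SE). The remaining 3 had smaller log2 fold changes, 0.78 ± 0.12 for Aen, 0.45 ± 0.11 for Ei24 and 0.26 ± 0.06 for Apaf1 (SE). The BH3-only genes did not share this direction. Bbc3 averaged 2.26 ± 0.868 CPM after 5-FU and 3.80 ± 0.713 CPM in untreated HSCs (SD, n = 4 each) and was not called (adjusted p = 0.0949). Pmaip1 had too few reads to be tested, 9 in all after 5-FU and 29 in untreated HSCs, of which 22 came from replicate 4.

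The receptors split. Eda2r had 16.7, 23.1, 21.6 and 15.3 CPM after 5-FU, against 2.04, 9.83, 4.06 and 4.76 CPM in untreated HSCs. Fas had 3.22, 1.48, 1.47 and 0.767 CPM after 5-FU, against 3.70, 6.16, 3.26 and 6.82 CPM in untreated HSCs. Eda2r was thus higher in each 5-FU library and Fas lower in each, though the 2 groups almost met for Fas, with log2 fold changes of 1.96 ± 0.38 for Eda2r and -1.49 ± 0.45 for Fas (SE, adjusted p = 0.0175). The call of Fas was lost without untreated replicate 4 (adjusted p = 0.0539) and without untreated replicates 2 and 4 (0.192). Tnfrsf10b was called higher, with a log2 fold change of 0.57 ± 0.09 (SE), and Tnfrsf23 was not called, with 3.53 ± 1.88 CPM after 5-FU and 2.54 ± 0.659 CPM in untreated HSCs (SD, n = 4 each).

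Of the repair genes, Rrm2b, Ercc5 and Xpc were called lower after 5-FU, with log2 fold changes of -0.75 ± 0.13, -0.71 ± 0.13 and -0.48 ± 0.09 (SE). Rrm2b averaged 36.6 ± 4.82 CPM after 5-FU and 61.8 ± 9.28 CPM in untreated HSCs (SD, n = 4 each). Polk, with means of 47.2 CPM after 5-FU and 49.3 CPM in untreated HSCs, and Ddb2, with means of 17.4 CPM after 5-FU and 17.8 CPM in untreated HSCs, were not called. Of the metabolic members, Ephx1 and Dcxr were called lower. Ephx1 had 2.28, 4.95, 3.76 and 2.88 CPM after 5-FU, against 7.17, 8.37, 7.43 and 8.55 CPM in untreated HSCs. The groups were clearly apart, and the log2 fold changes were -1.18 ± 0.26 for Ephx1 and -0.96 ± 0.20 for Dcxr (SE). Sesn1, Fdxr and Ak1 were not called, with log2 fold changes of -0.05 ± 0.07, 0.11 ± 0.23 and 0.36 ± 0.19 (SE).

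In the same comparison all 20 mitosis genes were called higher after 5-FU, with a mean log2 CPM of 6.60 to 6.88 after 5-FU and 1.85 to 4.47 in untreated HSCs, where replicate 3 was highest. No HSC marker was called higher and 8 of 12 were called lower. Of the endothelial and stromal markers, 5 of 12 were called lower, and of the 5 erythroid markers tested 1 was called higher and 2 lower. Hba-a1 and Hba-a2 were at 0 in all 4 libraries after 5-FU, and Hba-a2 had reads in all 4 untreated libraries. The part of these genes and cells was not tested. The counts of members stayed at 12 higher and 11 lower without untreated replicate 3 and 5-FU replicate 4, and were 13 higher and 9 lower without untreated replicates 2 and 4, alternatives added after the data were seen.

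The nifedipine and 5-FU comparisons share no library, so the calls can be set side by side. Of the 12 members called higher after 5-FU, 8 were also among the 26 called higher with nifedipine: Apaf1, Bax, Eda2r, Ei24, Perp, Phlda3, Tnfrsf10b and Zmat3. Among the 12577 genes tested in both comparisons, 10.8% of those called higher after 5-FU were called higher with nifedipine and 57.1% lower. Trp53 was called higher after 5-FU and lower with nifedipine, and Aen, Pidd1 and Rps27l were called higher after 5-FU and not called with nifedipine. All 11 members called lower after 5-FU (Dcxr, Ephx1, Ercc5, Fas, Mdm2, Mdm4, Plk2, Ptpn14, Rrm2b, Trp53inp1 and Xpc) were called higher with nifedipine, so they make up 11 of those 26. The 5-FU calls of Mdm2, Fas, Ptpn14 and Mdm4 did not hold in every alternative. That of Mdm2 was lost in 10 of 19 alternatives and its direction turned in 1. The nifedipine calls of Apaf1 and Trp53 did not hold in every alternative either. Among all genes called lower after 5-FU and tested in both, 50.8% were called higher with nifedipine. Ak1, Bbc3, Ccng1, Polk, Sesn1 and Tnfrsf23 were called higher with nifedipine and not after 5-FU, and Ddb2 and Plk3 were called in neither. The differences between the fold changes of the 2 experiments were not tested.

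Control HSCs were set against untreated HSCs to place the 4 groups on 1 scale. Culture, experiment and sequencing run cannot be told apart in this comparison, and it shares its untreated libraries with the 5-FU comparison and its control libraries with the nifedipine comparison. Of the 33 members, 11 were called higher in control HSCs and 13 lower, which is 33.3% and 39.4%, against 35.8% and 36.2% of all genes tested. The libraries did not overlap in 9 members with control all above and in 15 with control all below, against 35.1% and 36.9% of all genes. A call with a log2 fold change of 1 or more either way was made for 13 members, against 37.8% of all genes. All 20 mitosis genes were called higher in control HSCs. Called lower in control HSCs were 10 of 12 HSC markers, 11 of 12 endothelial and stromal markers, all 8 granulocyte and macrophage markers tested, 6 of 8 erythroid and 2 of 3 lymphocyte markers tested, while of 6 megakaryocyte markers tested 3 were called higher and 1 lower. Called higher were 1 HSC marker, 1 endothelial or stromal marker and 1 erythroid marker. In 6 of the endothelial and stromal markers all control libraries lay below all untreated ones. The part of these genes and cells was not tested. Of the 9 genes of cell-intrinsic apoptosis, 5 were called higher and none lower, and of the 5 repair genes 4 were called lower and none higher. Bax had 42.8, 44.9 and 47.4 CPM in control HSCs, against 9.05, 6.16, 11.5 and 7.07 CPM in untreated HSCs. Rps27l had 159, 153 and 135 CPM in control HSCs, against 36.7, 32.6, 42.0 and 35.8 CPM in untreated HSCs. These 2 genes had the highest fold changes, 5.39-fold and 4.14-fold, with log2 values of 2.43 ± 0.18 and 2.05 ± 0.09 (SE). Pidd1 had 30.4, 28.3 and 37.9 CPM in control HSCs, against 9.66, 10.9, 11.9 and 11.3 CPM in untreated HSCs. Aen had 69.0, 78.0 and 70.5 CPM in control HSCs, against 28.2, 22.3, 30.2 and 25.2 CPM in untreated HSCs. Apaf1 had 171, 176 and 157 CPM in control HSCs, against 78.9, 78.2, 75.6 and 72.0 CPM in untreated HSCs. In each of the 3 genes all control libraries lay above all untreated ones, with log2 fold changes of 1.59 ± 0.15, 1.48 ± 0.10 and 1.18 ± 0.07 (SE). Eda2r had 6.51, 16.2 and 16.9 CPM in control HSCs, against 2.04, 9.83, 4.06 and 4.76 CPM in untreated HSCs. The groups overlapped, and its call (log2 fold change 1.43 ± 0.50, SE, adjusted p = 0.0257) was lost without control replicate 2 (0.0904) or 3 (0.101).

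The deepest falls in control HSCs were those of Plk2, Ephx1 and Ptpn14. Plk2 had 3.05, 3.70 and 2.45 CPM in control HSCs, against 71.0, 40.7, 80.3 and 130 CPM in untreated HSCs. Ephx1 had 0.635, 0.490 and 0.887 CPM in control HSCs, against 7.17, 8.37, 7.43 and 8.55 CPM in untreated HSCs. Ptpn14 had 14.8, 16.9 and 20.1 CPM in control HSCs, against 144, 141, 155 and 149 CPM in untreated HSCs. No library of one group approached the other in these genes, and the log2 fold changes were -4.68 ± 0.39, -3.50 ± 0.33 and -3.06 ± 0.10 (SE). Tnfrsf23 had 0.508, 0.436 and 0.782 CPM in control HSCs, against 2.54, 3.08, 2.91 and 1.61 CPM in untreated HSCs. Trp53inp1 had 59.3, 49.7 and 71.5 CPM in control HSCs, against 155, 209, 144 and 196 CPM in untreated HSCs. Both were lower in each control library. Rrm2b had 26.6, 27.1 and 23.5 CPM in control HSCs, against 75.2, 59.7, 58.6 and 53.8 CPM in untreated HSCs. Ddb2 had 9.09, 9.42 and 7.51 CPM in control HSCs, against 17.2, 18.2, 22.0 and 14 CPM in untreated HSCs. For these too the groups did not overlap, and the 4 genes had log2 fold changes of -2.08 ± 0.48, -1.51 ± 0.17, -1.23 ± 0.13 and -1 ± 0.18 (SE). Trp53 had 124, 102 and 130 CPM in control HSCs, against 64.4, 59.7, 73.0 and 63.0 CPM in untreated HSCs. Mdm2 had 114, 120 and 127 CPM in control HSCs, against 154, 146, 154 and 165 CPM in untreated HSCs. Trp53 was thus higher and Mdm2 lower in every control library, with log2 fold changes of 0.90 ± 0.10 and -0.33 ± 0.06 (SE). Mdm2 was not called at the RPKM-based library size (adjusted p = 0.264) or with the exon length trend removed (0.565). Ccng1, Ei24, Zmat3 and Tnfrsf10b were also called higher, with log2 fold changes of 0.26 to 0.94, and Ercc5, Fas, Xpc, Mdm4 and Sesn1 lower, with values of -0.99 to -0.56. Of these, Fas (adjusted p = 0.0469) was lost without any 1 of untreated replicates 2 and 4 and the 3 control replicates (0.0655 to 0.139), and Tnfrsf10b (0.0493) without any 1 of untreated replicates 1, 2 and 4 and the control replicates (0.0516 to 0.161). Some changes of method also removed these calls. Fas kept its call in 7 of 16 alternatives and Tnfrsf10b in 3 of 17.

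**Figure D4:**
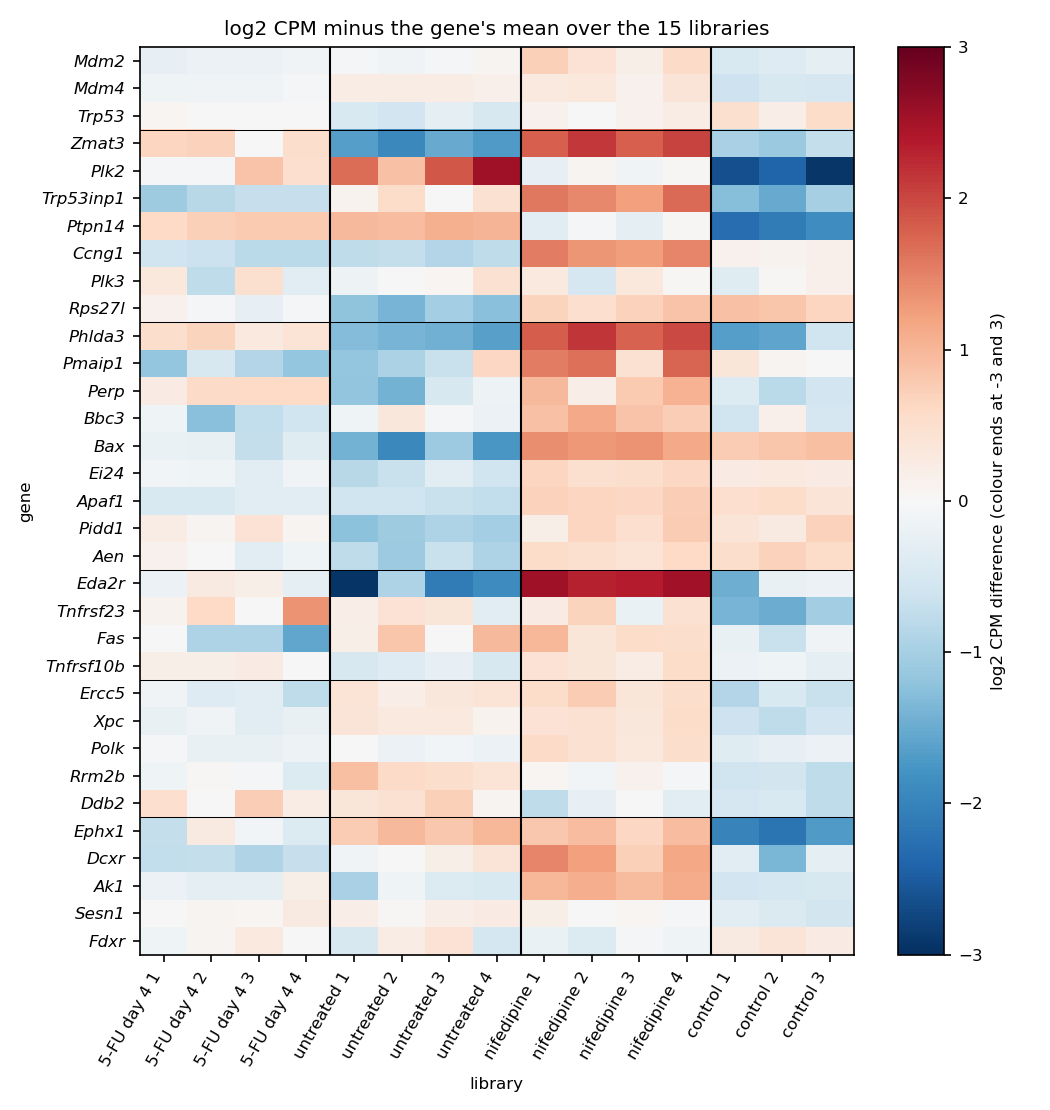
Log2 CPM of each p53 target gene in each of the 15 libraries, minus the gene's mean over the 15 libraries, ordered by role as in the plot of fold changes; red is above and blue below the mean, and the colours end at -3 and 3. The nifedipine columns are red for most genes, and Plk2, Ephx1 and Ptpn14 are bluest in the 3 control columns.

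Across the 4 groups, the mean level was highest with nifedipine for 21 of the 33 members, in control HSCs for 4, after 5-FU for 1 and in untreated HSCs for 7. Ranking the 4 groups sets cultured HSCs against fresh ones, where culture, experiment and sequencing run cannot be told apart. Of the 13762 genes tested in any comparison, the mean was highest with nifedipine for 17.2%, in control HSCs for 31.8%, after 5-FU for 12.9% and in untreated HSCs for 38%. In 14 of those 21 members, no nifedipine library overlapped the libraries of the group next in order, against 31.2% of all genes that were highest with nifedipine (5.37% of all genes). The lowest mean lay in control HSCs for 15 members and in untreated HSCs for 13. Zmat3 averaged 232 ± 27.1 CPM with nifedipine, 31.3 ± 4.62 CPM in control HSCs, 84.8 ± 16.9 CPM after 5-FU and 18.3 ± 2.19 CPM in untreated HSCs (SD, n = 4, 3, 4 and 4), and no groups next to each other in level overlapped. Bax, Ei24, Apaf1 and Ptpn14 also had no overlap between neighbours in their orders. Plk2 averaged 20.9 ± 2.18 CPM with nifedipine, 3.07 ± 0.626 CPM in control HSCs, 28.1 ± 9.05 CPM after 5-FU and 80.4 ± 37.0 CPM in untreated HSCs (SD). It was thus highest in untreated HSCs and lowest in control HSCs, and the 5-FU and nifedipine libraries between them overlapped. Ephx1 averaged 7.51 ± 0.802 CPM with nifedipine, 0.670 ± 0.201 CPM in control HSCs, 3.46 ± 1.16 CPM after 5-FU and 7.88 ± 0.681 CPM in untreated HSCs (SD). Its nifedipine libraries overlapped the untreated ones, and control HSCs were the lowest group. Plk3, Ddb2 and Fdxr overlapped between all neighbours in their orders.

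Per length of exon, as RPKM computed from the counts with the TMM scaling and averaged over the 15 libraries, the members spanned from Ccng1 at 86.6 to Pmaip1 at 0.421. Rps27l at 82.8, Mdm4 at 69.4, Sesn1 at 51.8 and Trp53 at 39.7 RPKM followed Ccng1. Mdm4 mRNA was more abundant per length than Mdm2 mRNA in each group, with means of 63.8 and 19.0 RPKM after 5-FU, 78.7 and 21.2 in untreated HSCs, 82.6 and 30.0 with nifedipine, and 46.9 and 16.4 in control HSCs. Ccng1 reached 185 RPKM with nifedipine, the highest group mean of any member, against 76.0 RPKM in control HSCs. Among the BH3-only genes Bbc3 was above Pmaip1 in each of the 4 groups, with 2.04 and 1.08 RPKM with nifedipine.

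Beyond the members, 29 of 30 listed other p53 targets were found, in a list also chosen with earlier results of these data known. With nifedipine 16 of 28 tested were called higher and 3 lower, which is 57.1% and 10.7%, against 25.8% and 24.2% of all genes. The median log2 fold change was 0.50, against 0.02 over all genes. After 5-FU 9 of 27 were called higher and 8 lower, which is 33.3% and 29.6%, against 26.8% and 23.8% of all genes. The median was 0.10, against -0.02 over all genes. The cyclin-dependent kinase inhibitor Cdkn1a (p21), the classical effector of p53 arrest, averaged 64.8 ± 5.80 CPM with nifedipine and 12.5 ± 2.73 CPM in control HSCs (SD, n = 4 and 3), a log2 fold change of 2.37 ± 0.14 (SE, adjusted p = 3.32e-10). It averaged 15.6 ± 2.01 CPM after 5-FU and 6.54 ± 4.95 CPM in untreated HSCs (SD, n = 4 each), a log2 fold change of 1.23 ± 0.45 (SE, adjusted p = 0.0406), so untreated libraries varied widely. In control against untreated HSCs it was not called (log2 fold change 0.95, adjusted p = 0.123). Sesn2, a sestrin like Sesn1, and Gdf15, a secreted stress cytokine, were the next smallest p-values among genes called higher with nifedipine, with log2 fold changes of 1.80 ± 0.12 and 3.93 ± 0.40 (SE). Pcna, the sliding clamp of replication, was lower with nifedipine, with a log2 fold change of -0.45 ± 0.06, and higher after 5-FU, with one of 1.40 ± 0.14 (SE). The centrosomal kinase Nek2 and the metalloreductase Steap3 were also lower with nifedipine, with log2 fold changes of -0.77 ± 0.13 and -0.92 ± 0.18 (SE). After 5-FU the glutathione peroxidase Gpx1 and the ubiquitin ligase subunit Fbxw7 were also higher, with log2 fold changes of 0.53 ± 0.09 and 0.44 ± 0.08 (SE). The antiproliferative gene Btg2 averaged 10.5 CPM after 5-FU and 197 CPM in untreated HSCs, and its log2 fold change was -4.19 ± 0.27 (SE). Sytl1, a vesicle transport gene, and Ccng2, encoding cyclin G2, were also lower after 5-FU, with log2 fold changes of -1.57 ± 0.21 and -0.74 ± 0.10 (SE). In control against untreated HSCs, 8 of 26 targets were called higher and 13 lower, against 35.8% and 36.2% of all genes. The smallest p-values were those of Pcna, Trim35 and Steap3 among genes called higher, with log2 fold changes of 1.74, 1 and 2.31, and of Btg2, Trp53i11 and Ccng2 among genes called lower, with log2 fold changes of -4.51, -1.57 and -1.52.

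Kinases, ligases and cofactors that act on p53 were called higher with nifedipine in 6 of 27 cases and lower in 8, which is 22.2% and 29.6%, against 25.8% and 24.2% of all genes. The median log2 fold change was -0.05. Prkdc, the DNA-dependent protein kinase, Ppp1r13b, which encodes the p53 cofactor ASPP1, and Trim24, a ubiquitin ligase of p53, were higher, with log2 fold changes of 0.34 ± 0.06, 0.44 ± 0.09 and 0.39 ± 0.09 (SE). Usp7, a deubiquitinase of Mdm2 and p53, Hipk2, a kinase that phosphorylates p53, and Usp10, a deubiquitinase of p53, were lower, with log2 fold changes of -0.56 ± 0.06, -0.53 ± 0.07 and -0.53 ± 0.08 (SE). After 5-FU 10 of 27 were called higher and 8 lower, which is 37% and 29.6%, against 26.8% and 23.8% of all genes. The checkpoint kinase Chek1, Prkdc and Usp10 were higher after 5-FU, with log2 fold changes of 1.57 ± 0.11, 0.65 ± 0.08 and 0.90 ± 0.11 (SE). The acetyltransferases Crebbp and Ep300, coactivators of p53, and Ppp1r13b were lower, with log2 fold changes of -0.29 ± 0.04, -0.27 ± 0.04 and -0.32 ± 0.06 (SE). In control against untreated HSCs, 12 of 27 were called higher and 5 lower, which is 44.4% and 18.5%, against 35.8% and 36.2% of all genes. Chek1, Usp7 and the checkpoint kinase Chek2 were higher in control HSCs, with log2 fold changes of 1.88 ± 0.12, 0.80 ± 0.06 and 0.86 ± 0.08 (SE). The damage mediator Trp53bp1, Ppp1r13b and Crebbp were lower, with log2 fold changes of -0.86 ± 0.07, -0.88 ± 0.07 and -0.61 ± 0.05 (SE).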

How the data were processed

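The 15 RNA sequencing libraries were grouped by the sample labels. Per the labels' protocols, cDNA of the sorted cells was turned into libraries with Nextera XT, which keeps no strand information. No aligner or counting program is named in the sources used here; the submitters' processing notes name the build mm10. Per the file headers, each deposited table gives total exon reads, which are whole-number counts per gene, and RPKM values, which the authors scaled by exon length and a read total. The counts were used for all tests, and the RPKM values only to recover exon lengths and that total. Features of 1 gene on alternate scaffolds were added up, so that 48737 features became 46120 genes; no member had such copies. Coordinates were changed to start at 1.

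Separate fits were made for the 3 comparisons in edgeR 4.0.16 under R 4.3.3, with TMM factors, filterByExpr at a minimum count of 10, the quasi-likelihood F test on group alone, and Benjamini-Hochberg adjustment. SE is the size of the log2 fold change divided by the square root of F. The fit was tested on simulated data in which all genes of a comparison had the same spread, which real genes need not share. Alternatives included DESeq2 1.42.0, other filters and library sizes, removal of the trend with exon length, a replicate block and leaving out each library. The members and gene lists were chosen with earlier results of these data known. Values in every library are given for Trp53, Mdm2 and members called with a log2 fold change of 1 or more either way; from the 2 pathway lists Cdkn1a and the 3 called genes with the smallest p in each direction were named. Promoter sequences are from RefSeq (GRCm38.p6), and gene overlaps from GENCODE M21.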

Additional observations from a re-analysis of the deposited data

Results flagged for a closer look

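Single libraries that stood apart from the rest of their group were looked for in 99 sets of 4 libraries (33 members in 3 groups), by the gap to the nearest other library as a share of the group's range (Dixon's test at the 95% level). A share of about 5 in 100 such sets is exceeded by chance, and 4 were found. Trp53 was high in 5-FU replicate 1, at 92.8 CPM, where the other libraries had 87.3 to 88.2 CPM. Mdm4 was high in 5-FU replicate 4, at 489 CPM, where the others had 460 to 464 CPM. Perp was low in 5-FU replicate 1, at 5.77 CPM, where the others had 7.32 to 7.51 CPM. Pmaip1 was low in nifedipine replicate 3, at 1.22 CPM, where the others had 3.14 to 3.69 CPM. The calls of these genes in the comparisons of those groups held without the library in question.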

How the results depend on the processing

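Of 28 members called with nifedipine, 24 kept their call and direction in every alternative that tested them, as did 19 of 23 after 5-FU and 20 of 24 in control against untreated HSCs. Higher and lower calls of members ranged over the alternatives from 20 to 26 and 1 to 2 with nifedipine, 10 to 14 and 8 to 11 after 5-FU, and 9 to 12 and 11 to 14 in control against untreated HSCs. The 20 higher calls with nifedipine came from a minimum mean of 10 CPM, which tests fewer genes. Lower calls with nifedipine fell to 1 with the RPKM read total, to 1 with all 4 groups in 1 fit (Fdxr, adjusted p = 0.0552, where Pmaip1 had 0.0907), and ranged from 1 to 2 when 1 library was left out. The RPKM read total moved the lower calls of other pathway genes after 5-FU to 6, where 16 stood in the report's fit. The causes were not tested.

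Reversed log2 fold changes were those of members not called, except Mdm2 after 5-FU. With the RPKM read total they were 0.05 for Mdm2, 0.15 for Sesn1, 0.11 for Plk3, 0.14 for Polk and 0.17 for Ddb2 after 5-FU, and 0.10 for Plk3, 0.11 for Polk and 0.22 for Ak1 in control HSCs. With the length trend removed they were 0.02 for Rps27l and -0.01 for Pidd1 with nifedipine, and -0.09 for Perp and 0.05 for Ak1 in control HSCs. Leaving out both untreated 3 and 5-FU 4 gave 0.00 for Plk3 and 0.15 for Ddb2 after 5-FU; leaving out untreated 2 and 4 gave 0.09 for Plk3 after 5-FU, and 0.01 for Plk3 and 0.16 for Ak1 in control HSCs. Leaving out 1 library gave ranges of -0.32 to 0.11 for Plk3, -0.17 to 0.09 for Ddb2 and -0.03 to 0.31 for Fdxr after 5-FU, -0.03 to 0.30 for Plk3 and -0.01 to 0.21 for Pidd1 with nifedipine, and -0.21 to 0.62 for Phlda3, -0.25 to 0.03 for Plk3, -0.02 to 0.43 for Perp and -0.17 to 0.11 for Ak1 in control HSCs.

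Libraries with the same replicate number did not deviate together (r from -0.143 to 0.136), so the numbers were not taken as a pairing. With the number as a replicate block, higher and lower calls of members were 26 and 2 with nifedipine, 12 and 10 after 5-FU and 10 and 12 in control HSCs, and the reversed values were -0.01 for Pidd1 with nifedipine, and 0.01 for Plk3 and 0.03 for Ak1 in control HSCs.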
